A study of Mus musculus with 14 samples.

Results

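The step from the long-term haematopoietic stem cell (LT-HSC) to the granulocyte-monocyte progenitor (GMP) was described in control mice given poly(I:C), with 4 libraries labelled GMP set against 4 labelled LT-HSC, 8 of the 14 RNA-seq libraries of the series. The libraries were chosen by their labels and every gene in the table was eligible. The control GMP and control LT-HSC groups both came from bone marrow of C57BL/6 mice with the genotype WT. The other 6 libraries, 3 of AML1-ETO GMPs and 3 of AML1-ETO LT-HSCs, came from C57BL/6 mice of the genotype Runx1-Runx1t1, the mouse form of the AML1-ETO leukaemia fusion. Per the labels' protocols, poly(I:C), a double-stranded RNA mimic that induces interferon, was given to the mice of all 14 samples, controls included, as 4 intraperitoneal doses of 5 mg/kg on alternate days to activate Mx1-Cre. This recombinase is driven by an interferon-responsive promoter and is not specific to blood stem cells. The labels do not say whether the controls carried Mx1-Cre, which surface markers defined the sorts, which sex the mice had, or whether each library came from its own mouse. The cells were kept in serum-containing medium before and after sorting. P-values therefore measure the spread between libraries only, which may be partly technical. Those of the gene tests use a spread estimated over all 14 libraries, AML1-ETO included.

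LT-HSCs sit at the top of blood formation: they divide rarely, renew themselves and can give rise to every blood lineage. GMPs are dividing progenitors committed to neutrophils, monocytes and related granulocytes, and they make the serine proteases and myeloperoxidase that are packed into the first granules of the neutrophil. The ETS factor PU.1 (gene Spi1) and the C/EBP factors are known to drive this commitment, while factors such as Hlf and Mecom maintain the stem cell state.

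The 4 GMP libraries held 16121039 to 19403864 counts and the 4 LT-HSC libraries 13210952 to 15355518. GMP libraries contained 18747 to 19508 genes with at least 1 count, against 12106 to 15329 in LT-HSC libraries. Of the detected genes, 32.6% to 34.6% lay under 1 CPM (read counts scaled to a common library size) in GMP libraries and 4.78% to 6.45% in LT-HSC libraries, so the LT-HSC libraries held far fewer genes at a few counts. All CPM values here are scaled by effective library size (TMM). Genome-wide log2 levels correlated between pairs of GMP libraries at r = 0.983 to 0.986, and between pairs of LT-HSC libraries at 0.784 to 0.859, across genes. The biological coefficient of variation was 0.121 in GMPs and 1.11 in LT-HSCs, which makes a GMP level far more precise than an LT-HSC level. LT-HSC replicate 3 stood apart, with 49 genes at or near 0 that its 3 partners expressed, against 0 to 3 such genes in each of those partners.

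A large part of the transcriptome separated the progenitor from the stem cell. Of 16116 genes tested with edgeR over all 14 libraries, 2247 rose and 1702 fell in GMPs at an adjusted p under 0.05, so 13.9% of all genes were called higher, 10.6% lower and 24.5% either way. In 20.8% of all genes every GMP library lay above every LT-HSC library, and in 11.4% every one lay below. Among called genes with counts in both cell types, 833 were fitted at 2-fold higher or more in GMPs and 1241 at 2-fold lower or more, while 123 reached 10-fold higher and 544 reached 10-fold lower. Over all called genes the directions lay closer, with 1315 higher and 1363 lower at 2-fold, and 605 and 666 at 10-fold. These include genes at 0 in a group, whose fitted fold is not a measured size. Among the genes called higher, 482 had 0 counts in every control LT-HSC library, and among those called lower, 122 had 0 counts in every control GMP library. The low end of the LT-HSC libraries was sparse, and its part in the first of these numbers was not tested. The balance of the 2 directions depended on the scaling: 56.9% of calls were higher in GMPs with TMM factors, against 44.9% with RLE factors (1698 higher, 2087 lower) and 47.4% with upper-quartile factors (1782 higher, 1980 lower). It was 40.6% with DESeq2, which also changes the test (1831 higher, 2676 lower), and 48.9% with only the 8 control libraries in the filter, scaling and fit (1694 higher, 1771 lower of 13585 genes). The median log2 fold change over all genes was 0.02 with TMM factors and -0.12 with RLE factors, a shift of 0.148, and -0.08 with upper-quartile factors, a shift of 0.107. Where this turns the median of a group of genes it is stated there. In bulk RNA, fewer cells of a type and less RNA per cell cannot be told apart.

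**Figure D1:**
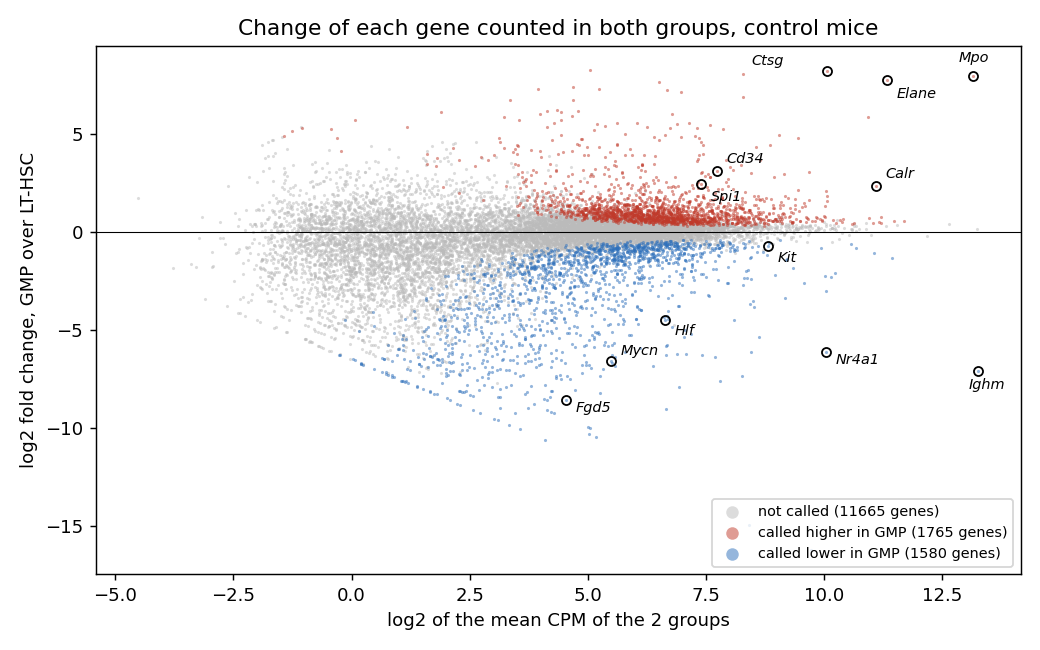
Log2 fold change of GMPs over LT-HSCs in control mice (vertical axis) against the log2 of the mean CPM of both groups (horizontal axis), for the 15010 tested genes with counts in both groups. Of these, 1765 were called higher in GMPs, 1580 lower and 11665 neither; Mpo and the granule proteases combine a high level with a large rise.

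Surface markers in common use for sorting such cells went with both labels. The labels do not give the markers of these sorts, and any used as a gate would follow the label by selection. Of 14 surface markers tested, 4 rose in GMPs, 8 fell and 2 did not pass the test, with a median log2 fold change of -1.32. That is 28.6% higher and 57.1% lower, beside 13.9% and 10.6% of all genes. Fcgr3, an Fc receptor in common use for gating GMPs, stood at 176, 170, 174 and 202 CPM in GMPs, against 2.80, 0.546, 0 and 0 CPM in LT-HSCs (log2 fold change 7.68 ± 0.77 SE, adjusted p = 1.43e-05). Cd34, the sialomucin that adult mouse LT-HSCs lack and GMPs carry, stood at 341, 405, 418 and 378 CPM in GMPs, against 48.0, 59.5, 39.3 and 30.0 CPM in LT-HSCs (3.12 ± 0.24, adjusted p = 2.48e-06). For both genes every GMP library lay above every LT-HSC library. Fcgr2b, the inhibitory Fc receptor, and Cd48, which is absent from LT-HSCs in the SLAM scheme, were the other 2 members to rise, by 3.96 ± 0.39 and 4.09 ± 0.93 on the log2 scale. Slamf1, the SLAM receptor of stem cells, fell by 7.49 on the log2 scale (0, 0.269, 0.649 and 0.175 CPM in GMPs; 64.8, 43.9, 30.0 and 56.8 CPM in LT-HSCs; adjusted p = 0.000292). Ly6a, which encodes Sca-1, fell by 6.82, with 0.116 to 1.34 CPM in GMPs and 45.1 to 217 CPM in LT-HSCs. Kit, the stem cell factor receptor shared by both populations, fell by only 0.73 (333, 348, 315 and 364 CPM in GMPs; 712, 454, 516 and 576 CPM in LT-HSCs). Slamf1 and Ly6a were close to absent from GMPs, whereas Kit RNA was present in all 8 libraries. The 2 markers that did not pass were Flt3 (1.21 ± 0.79, adjusted p = 0.294) and Cd27 (-0.07). Procr, the endothelial protein C receptor, fell by 6.77, but LT-HSC replicate 3 held none (0.116 to 0.857 CPM in GMPs; 128, 86.5, 0 and 42.1 CPM in LT-HSCs), and the call was lost with limma voom quality weights (adjusted p = 0.0605).

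Genes of stem cell identity were lost almost as a block. Of 46 tested members of that list, 40 fell in GMPs and none rose, with a median log2 fold change of -5.05, beside 10.6% lower and a median of 0.02 over all genes. With 1 library left out at a time the number that fell lay between 35 and 43. All 48 listed genes, tested or not, summed to 1348 to 1782 CPM in GMPs and 5559 to 10700 CPM in LT-HSCs.

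Hlf (chromosome 11, 90336536 to 90390895, minus strand, mm10), a PAR bZIP factor that protects stem cell quiescence, stood at 7.92, 9.80, 7.08 and 9.54 CPM in GMPs, against 296, 259, 46.6 and 158 CPM in LT-HSCs (-4.47 ± 0.47, adjusted p = 2.01e-05). Mecom, the zinc-finger factor required for long-term stem cells, stood at 1.61, 2.32, 0.584 and 1.63 CPM in GMPs, against 176, 101, 41.9 and 117 CPM in LT-HSCs (-6.14 ± 1, adjusted p = 0.000605). Fgd5, a guanine nucleotide exchange factor used as a stem cell reporter locus, had 0.0535, 0.215, 0.195 and 0 CPM in GMPs, against 86.8, 41.0, 34.9 and 22.7 CPM in LT-HSCs (-8.56 ± 0.66, adjusted p = 2.60e-06). In all of these, replicate 3 or 4 was the lowest LT-HSC library and still lay well above every GMP library. Mycn, the MYC family member of stem cells, was even among LT-HSC libraries at 87.4, 86.7, 81.2 and 102 CPM, against 0.482, 0.754, 1.04 and 1.51 CPM in GMPs (-6.55 ± 1.33, adjusted p = 0.00285). Tgm2, a transglutaminase, fell by 9.04 on the log2 scale, with 0.269 to 0.520 CPM in GMPs and 82.7 to 341 CPM in LT-HSCs. The GMP libraries held almost none of either transcript. Vwf, which marks platelet-biased stem cells, fell by 5.38, and the RNA-binding protein gene Msi2 fell by 1.99. Eng, an endothelial and stem cell TGF-beta co-receptor, gave the tightest of these differences, with 44.5, 51.4, 47.4 and 49.6 CPM in GMPs and 209, 215, 197 and 215 CPM in LT-HSCs (-2.12 ± 0.14, adjusted p = 7.75e-07). Cdkn1c, the p57 inhibitor that holds stem cells out of cycle, fell by 4.78 (0.162 to 0.482 CPM in GMPs; 15.8, 11.1, 0 and 15.2 CPM in LT-HSCs), with none in LT-HSC replicate 3, and the call was lost in 8 of 22 alternatives.

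**Figure D2:**
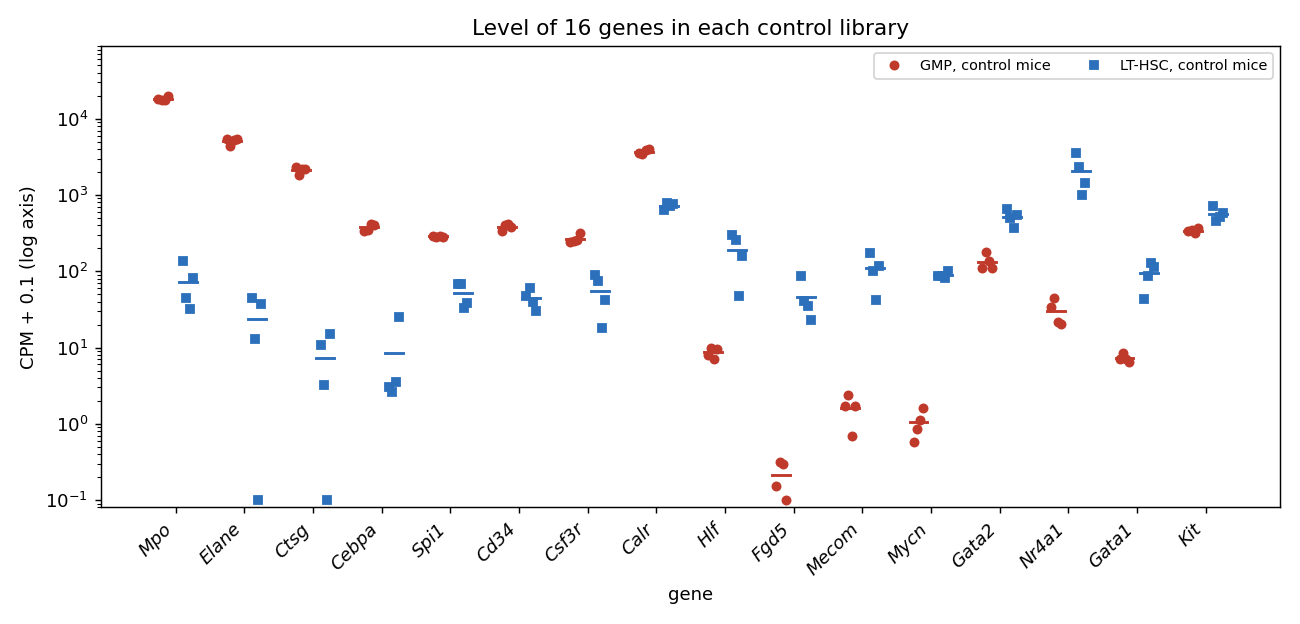
Level of 16 genes in each of the 8 control libraries, as CPM plus an offset of 0.1 on a log axis, GMP libraries left of LT-HSC libraries for each gene and bars at the group means. Granule genes and Cd34 sit above in all 4 GMP libraries, Hlf, Fgd5, Mecom, Mycn, Gata2 and Nr4a1 sit above in all 4 LT-HSC libraries, and Kit differs little.

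The primary granule list rose almost as a whole. It mixes genes of granule proteins with other genes of myeloid progenitors, such as Hk3 and Ms4a3. Of its 23 tested genes, 21 (91.3%, beside 13.9% of all genes) rose, none fell, and the 2 that did not pass were Slpi (2.12) and Ctsc (1.06). The median log2 fold change was 4.00 and the count lay between 20 and 22 with any 1 library left out. Together the 23 genes accounted for 38260 to 43420 CPM in GMPs and 1921 to 2336 CPM in LT-HSCs. Mpo alone took 1.68% to 1.91% of all counts in GMP libraries and was the most abundant gene there.

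Mpo, Elane, Prtn3 and Ctsg carry this finding, and the 250 bases before each gene's start in RefSeq are shown because PU.1, C/EBP and RUNX factors, known regulators of such genes, have short recognition cores that can be looked for there. Sequences are RefSeq's on GRCm38.p6, read 5′ to 3′ on the gene's strand. Capitals mark GAGGAA, the core of PU.1 sites, TTNNGCAA, a C/EBP core, and TGTGGT, the RUNX core, on either strand. The windows lie at chr11:87793534-87793783 on the plus strand for Mpo, chr10:79886062-79886311 on the plus strand for Elane, chr10:79879417-79879666 on the plus strand for Prtn3 and chr14:56102575-56102824 on the minus strand for Ctsg. GENCODE, the source of the gene coordinates given elsewhere, starts 3 of these genes further upstream: 203 bases of the Mpo window, 65 of the Elane window and all 250 of the Prtn3 window lie inside its gene, and none of the Ctsg window.
Mpo: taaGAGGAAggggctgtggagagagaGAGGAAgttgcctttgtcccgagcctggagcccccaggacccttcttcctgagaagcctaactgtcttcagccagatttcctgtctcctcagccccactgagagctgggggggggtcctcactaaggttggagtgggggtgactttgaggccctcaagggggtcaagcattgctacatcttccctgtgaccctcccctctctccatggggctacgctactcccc
Elane: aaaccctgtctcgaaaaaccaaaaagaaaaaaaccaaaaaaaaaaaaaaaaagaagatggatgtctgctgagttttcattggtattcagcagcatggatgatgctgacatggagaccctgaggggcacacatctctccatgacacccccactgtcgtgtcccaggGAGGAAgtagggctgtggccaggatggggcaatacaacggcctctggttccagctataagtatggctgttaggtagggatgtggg
Prtn3: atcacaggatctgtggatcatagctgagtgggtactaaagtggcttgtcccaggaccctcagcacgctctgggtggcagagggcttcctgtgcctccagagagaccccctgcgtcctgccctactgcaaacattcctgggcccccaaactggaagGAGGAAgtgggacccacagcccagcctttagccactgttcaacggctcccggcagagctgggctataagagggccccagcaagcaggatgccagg
Ctsg: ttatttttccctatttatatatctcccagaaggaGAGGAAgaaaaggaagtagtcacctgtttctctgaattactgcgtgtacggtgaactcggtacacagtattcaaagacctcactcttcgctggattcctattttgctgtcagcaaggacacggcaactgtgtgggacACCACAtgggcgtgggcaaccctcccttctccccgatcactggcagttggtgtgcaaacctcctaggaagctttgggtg

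GAGGAA stands in all 4 windows, beginning at -247 and -224 from the RefSeq start of Mpo (87793784), -85 from that of Elane (79886312), -95 from that of Prtn3 (79879667) and -216 from that of Ctsg (56102574), and the Ctsg window also holds TGTGGT on the opposite strand at -79. Of all 32851 RefSeq windows of this length 23.3% hold GAGGAA, 9.56% TTNNGCAA and 14% TGTGGT. The 21 windows found for 18 genes of the primary granule list hold them in 38.1%, 19% and 38.1% of cases, whereas the 1982 windows of genes called higher in GMPs hold them in 23.9%, 8.83% and 11.8%. A match says only that the letters are present.

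Mpo (chromosome 11, 87793581 to 87804413), the peroxidase that makes hypochlorous acid, stood at 18213, 17671, 17536 and 19674 CPM in GMPs, against 136, 44.2, 32.0 and 80.4 CPM in LT-HSCs (7.97 ± 0.47, adjusted p = 4.71e-07). Elane (chromosome 10, 79886247 to 79888215), neutrophil elastase, stood at 5422, 4448, 5188 and 5468 CPM in GMPs, against 44.8, 12.8, 0 and 36.9 CPM in LT-HSCs (7.76 ± 1.08, adjusted p = 0.000331). Ctsg (chromosome 14, 56099881 to 56102574), cathepsin G, stood at 2308, 1815, 2202 and 2194 CPM in GMPs, against 10.7, 3.14, 0 and 14.8 CPM in LT-HSCs (8.22 ± 0.92, adjusted p = 3.35e-05). The groups were separated by more than an order of magnitude in each case, and replicate 3 was the lowest LT-HSC library in all 3. Prtn3, proteinase 3, lies 3072 bases before Elane in the same protease cluster and rose by 5.87 ± 0.47, with 3242 to 4188 CPM in GMPs and 19.5 to 118 CPM in LT-HSCs. Of 11 tested genes within 50 kb of Elane, 6 rose and 1 fell. Mcpt8, a basophil protease, lies 14607 bases from Ctsg. An antisense gene is annotated inside Mpo, and without a known strand setting reads of the pair cannot be told apart.

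Around the proteases, Ms4a3, a membrane protein of committed granulocyte-monocyte cells, rose by 6.88 ± 1.09, and Serpinb1a, the inhibitor of neutrophil serine proteases, by 3.95 ± 0.32. Of 17 tested members of the secondary and tertiary granule list 4 rose, none fell and 13 did not pass, with a median log2 fold change of 0.29. The 23.5% that rose stand beside 13.9% of all genes. The 4 were Itgam, Cd177, Ceacam1 and Mcemp1, and 2 were called without GMP replicate 1, 3 or 4 or LT-HSC replicate 1, while 1 member fell without LT-HSC replicate 3. With only the 8 control libraries fitted 3 of 15 rose and 3 fell, with Ltf called lower. Itgam, the CD11b integrin, was at 7.01 to 14 CPM in GMPs and 0 to 2.23 CPM in LT-HSCs, and its call was lost in 20 of 22 alternatives. Ltf, lactoferrin, stood at 0.268 to 3.12 CPM in GMPs and 3.73 to 44.6 CPM in LT-HSCs (-3.28 ± 1.58, adjusted p = 0.150), and Camp, cathelicidin, at 1.22 to 2.47 CPM in GMPs and 3.79 to 7.15 CPM in LT-HSCs (-1.55 ± 0.89, adjusted p = 0.227). S100a8, an alarmin of mature neutrophils, reached 26.8 to 44.4 CPM in GMPs and 0 to 19.4 CPM in LT-HSCs (1.92 ± 0.91, adjusted p = 0.140).

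The transcription factors of the myeloid lineage split. Of 40 tested, 11 rose, 12 fell and 17 did not pass, with a median of -0.05. Both shares, 27.5% higher and 30% lower, lay above the 13.9% and 10.6% of all genes. Spi1 (chromosome 2, 91082390 to 91115756) stood at 291, 281, 291 and 285 CPM in GMPs, against 67.8, 67.1, 32.5 and 38.8 CPM in LT-HSCs (2.48 ± 0.31, adjusted p = 7.74e-05). Cebpa (chromosome 7, 35119293 to 35121928) stood at 335, 348, 421 and 402 CPM in GMPs, against 2.92, 2.52, 3.47 and 24.7 CPM in LT-HSCs (5.49 ± 0.80, adjusted p = 0.000251). The GMP values of both genes lay close together, while Cebpa in LT-HSC replicate 4 was several times its value in the other LT-HSC libraries. Cebpe, the C/EBP factor of later granule formation, had 118, 95.7, 93.5 and 107 CPM in GMPs and 0 counts in every LT-HSC library (adjusted p = 7.75e-07). That made it at least 2132-fold higher in GMPs against a floor of 3 counts over the group. Such bounds, here and below, allow for counting error only, not for genes that a library missed. Cebpd rose by 5.55 ± 0.97, whereas Cebpb, the C/EBP factor of emergency granulopoiesis, overlapped between the groups (45.6 to 64.7 CPM in GMPs; 28.5 to 151 CPM in LT-HSCs; adjusted p = 0.301). Of the 4 C/EBP genes described, only Cebpb was not called. Gfi1, the repressor that favours neutrophils over monocytes, rose by 2.04 ± 0.54 and Irf8, which favours monocytes and dendritic cells, by 3.68 ± 0.70. Myc rose by 1.01 ± 0.18 (404, 434, 462 and 492 CPM in GMPs; 192, 213, 222 and 260 CPM in LT-HSCs) and Myb by 0.74 ± 0.16. Runx1, whose gene is broken in AML1-ETO leukaemia, differed by less than its error allows to be called (171 to 212 CPM in GMPs; 135 to 188 CPM in LT-HSCs; 0.27 ± 0.17, adjusted p = 0.269).

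Factors of stem and multilineage cells mostly fell. Of 43 tested, 23 (53.5%, beside 10.6% of all genes) fell, 19 did not pass and 1, Lyl1, rose by 0.97 on the log2 scale. The median was -1.63. Gata2 stood at 109, 177, 137 and 109 CPM in GMPs, against 656, 499, 374 and 543 CPM in LT-HSCs (-1.96 ± 0.31, adjusted p = 0.000543). Nkx2-3, a homeobox gene, had 0 counts in every GMP library and 238, 160, 12.9 and 119 CPM in LT-HSCs, at least 3086-fold lower in GMPs (adjusted p = 0.000119). Gata3, a zinc-finger factor of T cells and of stem cells, fell by 8.10, with 0.0535 to 0.215 CPM in GMPs and 29.1 to 49.9 CPM in LT-HSCs. Id2, an inhibitor of E proteins, fell by 2.21 (6.58, 5.12, 3.90 and 3.67 CPM in GMPs; 25.8, 38.5, 22 and 3.20 CPM in LT-HSCs), with LT-HSC replicate 4 below the GMP libraries, and its call was lost in 8 alternatives.

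Monocyte genes came up in GMPs beside those of the neutrophil. Of 23 tested monocyte and dendritic genes, 12 rose, 8 did not pass and 3 fell, with a median of 2.00. These shares, 52.2% higher and 13% lower, stand beside 13.9% and 10.6% of all genes. The 3 that fell were Id2, Tcf4 (-0.93) and Zbtb46 (-3.98). Without GMP replicate 2 or 3 only 1 of the 3 falls was called. Csf1r, the receptor of macrophage colony-stimulating factor, had 178, 219, 220 and 187 CPM in GMPs and 0 counts in every LT-HSC library (adjusted p = 2.60e-06). With allowance for counting error only, it was at least 4139-fold higher. F13a1, coagulation factor XIII of monocytes, had 559, 579, 734 and 604 CPM in GMPs, against 0, 0, 7.28 and 1.90 CPM in LT-HSCs (8.08 ± 1.13, adjusted p = 0.000189). Ly6c2, which encodes a surface antigen of inflammatory monocytes, was already present in LT-HSCs and rose by 2.95 ± 0.62 (920 to 1057 CPM in GMPs; 36.3 to 257 CPM in LT-HSCs). Ctss, cathepsin S, overlapped (20 to 41.8 CPM in GMPs; 15.3 to 152 CPM in LT-HSCs; adjusted p = 0.343).

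Basophil and eosinophil granule genes were present in every GMP library. Of 22 tested genes of mast cells, basophils and eosinophils 13 rose, 6 did not pass, and Gata1, Kit and Itga2b fell, with a median of 3.19. That is 59.1% higher and 13.6% lower, beside 13.9% and 10.6% of all genes. Without LT-HSC replicate 1, 5 fell. Epx, eosinophil peroxidase, had 709, 426, 307 and 332 CPM in GMPs and 0 counts in LT-HSCs, at least 9134-fold higher (adjusted p = 1.01e-05). Prss34, a basophil protease, had 114, 110, 124 and 51.8 CPM in GMPs and 0 counts in LT-HSCs, at least 2063-fold higher (adjusted p = 0.000106). Mcpt8 had 78.7, 76.5, 67.2 and 43.5 CPM in GMPs, against 0.759, 0, 0 and 0 CPM in LT-HSCs (8.28 ± 0.66, adjusted p = 2.60e-06). All 3 were absent or nearly absent from LT-HSCs, where only replicate 1 held any reads. The fold bounds of Epx and Prss34 allow for counting error only, not for genes that a library missed. With limma voom quality weights Epx and Prss34 were not called (adjusted p = 0.122 and 0.231). Cpa3, the mast cell carboxypeptidase, was already present in LT-HSCs and rose by 2.43 ± 0.43 (86.5 to 124 CPM in GMPs; 5.25 to 34.7 CPM in LT-HSCs). Whether these RNAs sit in all GMPs or in a few committed cells inside the gate cannot be told from bulk libraries.

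Erythroid and megakaryocyte genes went the other way. Of 28 tested erythroid genes 20 (71.4%, beside 10.6% of all genes) fell, 7 did not pass and 1, the mitochondrial iron carrier Slc25a37, rose by 0.77. The median log2 fold change was -5.31, and 15 to 22 fell with 1 library left out. Gata1, the master factor of both lineages, stood at 6.96, 8.40, 6.95 and 6.34 CPM in GMPs, against 43.8, 86.3, 129 and 115 CPM in LT-HSCs (-3.70 ± 0.64, adjusted p = 0.000930). Klf1, the erythroid Krüppel-like factor, fell by 4.71, and the carbonic anhydrase genes Car1 and Car2 changed by -7.33 and -5.37. Car2 stood at 13.1, 25.6, 18.7 and 17.2 CPM in GMPs, against 593, 1126, 583 and 793 CPM in LT-HSCs. Replicate 1 was the lowest LT-HSC library for Gata1, Klf1 and Car1. Of 22 tested megakaryocyte genes 11 (50%, beside 10.6% of all genes) fell and none rose, with a median of -3.23. Pf4, platelet factor 4, stood at 1.12 to 7.48 CPM in GMPs and 31.0 to 134 CPM in LT-HSCs (-3.90 ± 1.04, adjusted p = 0.0143). Itga2b, the CD41 integrin, stood at 79.3 to 98.8 CPM in GMPs and 130 to 436 CPM in LT-HSCs (-1.90 ± 0.60), and its call was lost in 6 alternatives.

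B cell transcripts distinguished the LT-HSC libraries from the GMP libraries, and their levels are given here because they touch every other comparison of these 8 libraries. Immunoglobulin genes took 2.26%, 10.4%, 1.92% and 2.77% of counts in the LT-HSC libraries, against 0.0176% ± 0.00144 (SD, n = 4) in GMPs. All LT-HSC libraries lay above all GMP libraries, with a two-sided exact permutation p of 0.0286, the smallest that 4 against 4 allows, and 0.114 after adjustment over the 4 shares tested. Without LT-HSC replicate 2 the difference in share was -2.30 percentage points in place of -4.32 (adjusted p = 0.0381). Of 25 tested B cell genes 19 (76%, beside 10.6% of all genes) fell in GMPs and none rose, with a median of -7.05. The 25 genes summed to 778 to 804 CPM in GMPs and 14140 to 80100 CPM in LT-HSCs. Of them, 4 were at 0 in every GMP library. Ighm had 135, 154, 160 and 130 CPM in GMPs, against 8496, 49273, 8667 and 12289 CPM in LT-HSCs. Igkc had 0 counts in GMPs and 4205, 22950, 3346 and 4368 CPM in LT-HSCs. Replicate 2 held several times more of both than any other LT-HSC library. Pax5, a defining factor of B cells, had 0 counts in GMPs and 11.5 to 80.8 CPM in LT-HSCs, at least 827-fold lower in GMPs, and Cd79a of the B cell receptor fell by 8.07.

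**Figure D3:**
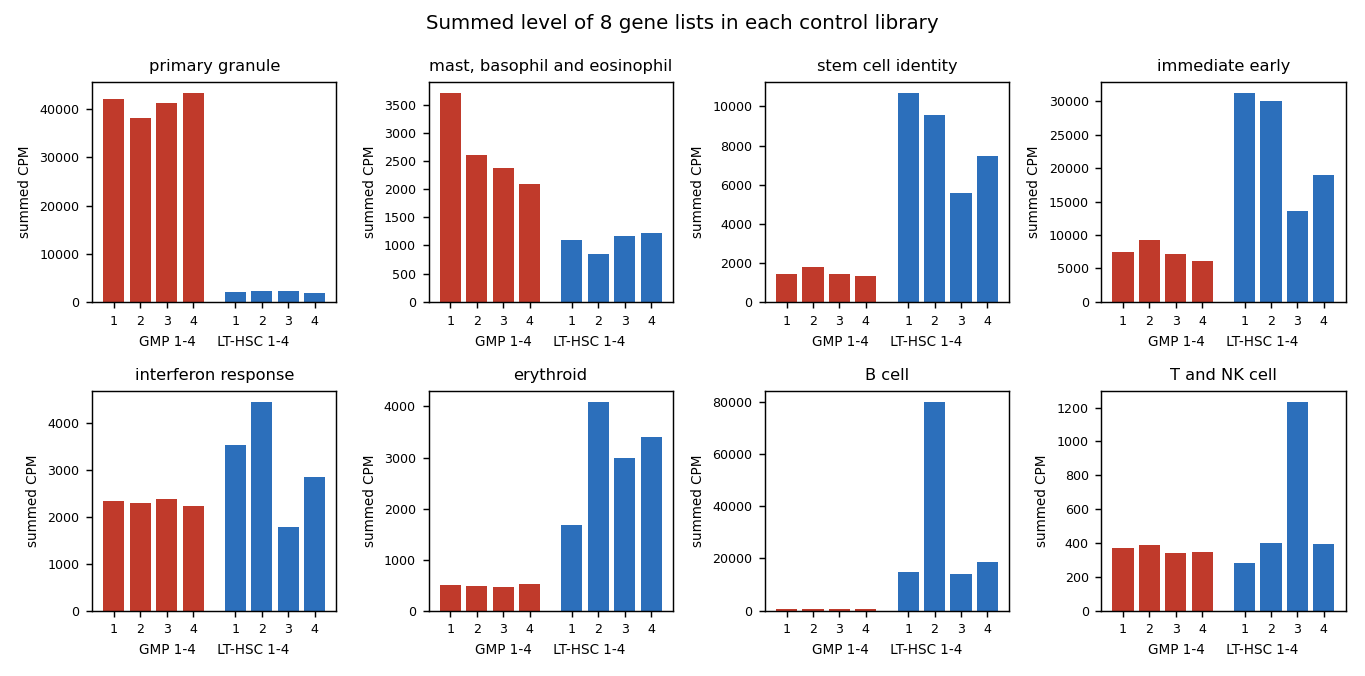
Summed level in CPM of 8 gene lists in each control library, as bars from 0, GMP libraries left of LT-HSC libraries. The B cell sum spans 14140 to 80100 CPM across LT-HSC libraries against 778 to 804 CPM in GMPs, while the primary granule and stem cell sums set all GMP libraries apart from all LT-HSC libraries.

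Genes of T and NK cells were split. Of 21 tested, 15 fell, 2 did not pass (Trac and Cd8a, both without counts in either control group) and 4 rose. The 4 were Nkg7, Gzmb, Prf1 and Cd5. These shares, 19% higher and 71.4% lower, stand beside 13.9% and 10.6% of all genes. The median was -5.97, or -5.27 with genes at 0 set to their bound. The number that fell was 10 to 14 with any 1 library left out, and 2 rose without GMP replicate 2. Nkg7, a granule membrane protein gene of killer cells that myeloid progenitors also use, rose by 3.61 ± 0.59, with 269 to 317 CPM in GMPs and 4.90 to 57.4 CPM in LT-HSCs. Il2rb had 0 counts in GMPs and 41.3, 64.0, 43.8 and 42.0 CPM in LT-HSCs, at least 1113-fold lower in GMPs. Tcf7 fell by 6.30, with LT-HSC replicate 3 at 550 CPM and its partners at 71.4 to 92.5 CPM, against 1.28 to 3.83 CPM in GMPs. Of all 25 listed members, tested or not, 11 were at 0 in every GMP library and 7 in every LT-HSC library. All 25 summed to 343 to 387 CPM in GMPs and 284, 399, 1236 and 392 CPM in LT-HSCs. The sum therefore overlapped, with LT-HSC replicate 1 below every GMP library. Endothelial and stromal genes fell in 10 of 16 cases (62.5%, beside 10.6% of all genes). Their median was -5.37 (-5.12 with genes at 0 set to their bound), and 1 member, the adhesion molecule gene Pecam1, rose by 0.84. The part that other cells or their RNA in the LT-HSC sorts play in these differences was not tested. Without LT-HSC replicates 2 and 3, an alternative chosen after the data were seen, the whole comparison kept 81.5% of its calls and none changed direction. Replicates 1 and 4, which remain there, still held 2.26% and 2.77% immunoglobulin counts, so this does not test the part of other cells.

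Cytokine receptor genes went both ways. Of 36 tested cytokine receptor genes 12 rose (33.3%), 10 fell (27.8%) and 14 did not pass, beside 13.9% higher and 10.6% lower of all genes. The median of 0.05 turned to -0.12 with RLE factors or DESeq2, -0.07 with upper-quartile factors and -0.0033 with the 8 control libraries alone. Csf3r, through which granulocyte colony-stimulating factor signals, stood at 243, 248, 257 and 315 CPM in GMPs, against 89.6, 73.8, 18.0 and 41.4 CPM in LT-HSCs (2.25 ± 0.39, adjusted p = 0.000944). Csf2rb, the shared beta chain for granulocyte-macrophage factor and related cytokines, rose by 2.57 ± 0.56, and Il6ra, the interleukin 6 receptor, by 3.42 ± 0.39. Homing and adhesion genes divided, with 11 of 35 higher, 10 lower and 14 not called, and a median of -0.09 (0.07 with the 8 control libraries alone). Their shares, 31.4% higher and 28.6% lower, stand beside the same 13.9% and 10.6%. Cxcr4, the marrow retention receptor, rose by 1.57 ± 0.24 (168, 174, 185 and 151 CPM in GMPs; 48.0, 60.2, 50.6 and 69.0 CPM in LT-HSCs). S1pr1, the receptor for exit towards sphingosine 1-phosphate, fell by 5.52, with 0.642 to 2.05 CPM in GMPs and 15.6 to 122 CPM in LT-HSCs. The count of homing genes that fell was 4 to 6 without any 1 GMP library, LT-HSC replicate 1 or 4, or AML1-ETO LT-HSC replicate 2.

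More cell cycle genes rose than fell in GMPs. Of 54 tested cell cycle genes 31 rose, 22 did not pass and 1, the centromere histone gene Cenpa, fell by 0.56, with a median of 0.94, beside 13.9% higher and 0.02 over all genes. Their sum was 10840 to 11480 CPM in GMPs and 4195 to 8725 CPM in LT-HSCs. Cdc45, which fires replication origins, stood at 107, 106, 112 and 101 CPM in GMPs, against 20, 25.4, 52.9 and 41.2 CPM in LT-HSCs (1.61 ± 0.28, adjusted p = 0.000930). Mcm7, a helicase subunit, rose by 1.02 ± 0.17 and Cks1b, a CDK cofactor, by 1.54 ± 0.23. Mki67, the general proliferation antigen, overlapped fully (525, 577, 469 and 607 CPM in GMPs; 253, 174, 835 and 574 CPM in LT-HSCs; 0.25 ± 0.37, adjusted p = 0.696). LT-HSC replicates 3 and 4 held more of Cdc45 and Mki67 than replicates 1 and 2. Without LT-HSC replicate 1, 19 cell cycle genes rose and 2 fell, 40 rose with voom quality weights, and Cenpa was not called without GMP replicate 1 or 3. Among 22 genes of cell cycle entry and arrest, 7 (31.8%, beside 10.6% of all genes) fell. Another 2 (9.09%, beside 13.9%) rose, Cdk4 (0.65) and Gfi1. The number that fell was 4 without GMP replicate 1, 3 or 4, while 4 rose without LT-HSC replicate 3. Btg2, an anti-proliferative gene, fell by 1.53, a call lost with voom quality weights (adjusted p = 0.0775), and Cdkn1b, the p27 inhibitor, fell by 0.62, a call lost in 7 alternatives.

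Immediate early genes, which respond within minutes to signals and to handling, were lower in GMPs. Of 39 tested, 26 (66.7%, beside 10.6% of all genes) fell and 1, Gadd45a, rose by 1.5, with a median of -1.67. With 1 library left out 21 to 28 fell, and 2 rose without LT-HSC replicate 1. Nr4a1 (chromosome 15, 101254269 to 101274795), an orphan nuclear receptor linked to stem cell quiescence, stood at 34.3, 44.9, 21.3 and 20.4 CPM in GMPs, against 3556, 2361, 992 and 1454 CPM in LT-HSCs (-6.11 ± 0.62, adjusted p = 1.52e-05). Fos stood at 450, 540, 478 and 380 CPM in GMPs, against 2716, 2975, 769 and 1411 CPM in LT-HSCs (-2.09 ± 0.36, adjusted p = 0.000892). LT-HSC replicates 1 and 2 were the higher pair for both genes. Jun fell by 1.31, Egr1 fell by 3.37 and the mRNA decay factor gene Zfp36l1 fell by 3.90. Both cell types were sorted, but the labels give no times between death and lysis, so handling and cell type cannot be told apart for these genes.

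Interferon-response and antigen-presentation genes were also lower in GMPs, after the same interferon-inducing injections. Of 51 tested interferon-response genes 29 (56.9%, beside 10.6% of all genes) fell, 19 did not pass and 3 (5.88%, beside 13.9%) rose. The 3 were Ifitm2 (0.63), Ly6e (0.58) and Psmb8 (0.58), none of which was called with RLE or upper-quartile factors or DESeq2. At most 1 was called without any 1 GMP library, LT-HSC replicate 1, 3 or 4, or AML1-ETO LT-HSC replicate 3. The median was -1.74, yet the summed level overlapped (2224 to 2379 CPM in GMPs; 1790 to 4452 CPM in LT-HSCs). Irf7, which amplifies the type I response, stood at 3.43, 3.72, 2.01 and 2.33 CPM in GMPs, against 28.9, 65.2, 13.4 and 29.8 CPM in LT-HSCs (-3.57 ± 0.48, adjusted p = 0.000145). Ddx58, which encodes the RNA sensor RIG-I, fell by 2.12 and the guanylate-binding protein gene Gbp2 fell by 3.10. Gbp4 had 0 counts in GMPs and 84.6, 65.0, 15.3 and 67.2 CPM in LT-HSCs, at least 1351-fold lower in GMPs. Of 21 MHC genes 13 (61.9%, beside 10.6% of all genes) fell and none rose, with a median of -1.65. The class I heavy chain gene H2-K1 fell by 1.05, with 1351 to 1449 CPM in GMPs and 2010 to 3692 CPM in LT-HSCs. MHC class I genes are near-identical copies, and how their shared reads were assigned is not known.

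Glycolysis had the highest median among the metabolic lists. Of 29 tested genes of glycolysis and the pentose phosphate pathway 17 (58.6%, beside 13.9% of all genes) rose and 9 did not pass. The glucose transporter Slc2a3 (-2.37), Hk1 (-0.74) and Pfkm (-1.77) fell, 10.3% of the list beside 10.6% of all genes. The 29 genes had a median of 0.99. Their sum was 10820 to 11990 CPM in GMPs and 4663 to 5840 CPM in LT-HSCs, and 15 to 18 rose with 1 library left out. Gpi1, glucose-6-phosphate isomerase, stood at 1270, 1226, 1210 and 1251 CPM in GMPs, against 356, 438, 432 and 389 CPM in LT-HSCs (1.62 ± 0.12, adjusted p = 1.86e-06). Pkm, pyruvate kinase, stood at 1709, 1539, 1623 and 1615 CPM in GMPs, against 663, 618, 392 and 479 CPM in LT-HSCs (1.59 ± 0.17, adjusted p = 2.26e-05). Hk3, the hexokinase of myeloid cells, rose by 3.68 ± 0.91, with none in LT-HSC replicate 3, and Pgd, of the pentose phosphate pathway, by 2.04 ± 0.17. Pgam1, phosphoglycerate mutase, rose by 3.41 ± 0.23, while Gapdh was low and uneven (206, 53.0, 39.5 and 39.7 CPM in GMPs; 16.2, 35.3, 35.7 and 23.3 CPM in LT-HSCs; adjusted p = 0.0811); both have many near-identical pseudogenes in the mouse, so their levels are uncertain.

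Genes of oxidative phosphorylation were higher too, by smaller steps. Of 61 tested, 29 (47.5%, beside 13.9% of all genes) rose, none fell and 32 did not pass, with a median of 0.60. Ndufb7, a complex I subunit, rose by 1.45 ± 0.21, Ndufa4 by 1.14 ± 0.24, cytochrome c (Cycs) by 1.24 ± 0.26 and the complex IV subunit Cox5a by 0.98 ± 0.18. Cox5a stood at 119, 102, 130 and 107 CPM in GMPs, against 41.6, 58.5, 61.0 and 72.3 CPM in LT-HSCs. The count was sensitive to single libraries and scaling, with 15, 13 and 17 called without GMP replicate 1, GMP replicate 3 and LT-HSC replicate 1, 43 without LT-HSC replicate 2, and 18 with RLE factors. The share of counts from mitochondrial genes was 1.41% ± 0.140 in GMPs and 1.12% ± 0.250 in LT-HSCs (SD, n = 4 each; exact permutation test, adjusted p = 0.228), and the difference passed without LT-HSC replicate 2 (0.405 percentage points, exact permutation test, adjusted p = 0.0381).

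Fatty acid metabolism, the pathway named in the study's title, changed in single enzymes. Of 30 fatty acid synthesis genes 8 fell, 20 did not pass and 2 rose, Elovl5 (1.20) and Hacd2 (0.96), with a median of -0.05. These shares, 6.67% higher and 26.7% lower, stand beside 13.9% and 10.6% of all genes. Acss2, which makes acetyl-CoA from acetate, stood at 8.67, 8.88, 7.27 and 9.31 CPM in GMPs, against 40.1, 45.6, 79.3 and 59.6 CPM in LT-HSCs (-2.72 ± 0.38, adjusted p = 0.000189). The desaturase gene Fads2 stood at 16.3, 20.5, 23.3 and 17.9 CPM in GMPs, against 70.2, 62.0, 118 and 94.7 CPM in LT-HSCs (-2.14 ± 0.37, adjusted p = 0.000849). Scd1, stearoyl-CoA desaturase, stood at 2.73, 0.592, 0.520 and 4.6 CPM in GMPs, against 13.1, 17.4, 87.1 and 32.8 CPM in LT-HSCs (-4.15 ± 1.03, adjusted p = 0.00981). In all 3 the highest LT-HSC library was replicate 3 and the groups did not overlap. Fads1, the other front-end desaturase, fell by 1.5. Fasn, fatty acid synthase, had no overlap between the groups (377 to 465 CPM in GMPs; 125 to 328 CPM in LT-HSCs) and did not pass (0.73 ± 0.26, adjusted p = 0.0577), though it did in 4 of 22 alternatives. Without GMP replicate 2, 5 synthesis genes fell. The number that rose was 1 without any 1 GMP library, LT-HSC replicate 1 or AML1-ETO LT-HSC replicate 2, and 4 or 5 without LT-HSC replicate 2 or 3 or AML1-ETO GMP replicate 1.

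Of 32 genes of fatty acid oxidation and uptake 9 rose, 21 did not pass and 2 fell, with a median of 0.15 that turned to -0.01 with RLE factors or DESeq2. These shares, 28.1% higher and 6.25% lower, stand beside 13.9% and 10.6% of all genes. Acaa2, mitochondrial thiolase, rose by 1.24 ± 0.23 (102, 89.4, 96.3 and 83.0 CPM in GMPs; 40.3, 60.8, 30.7 and 25.5 CPM in LT-HSCs). Cpt1a, the gate of mitochondrial import, overlapped (146, 159, 130 and 119 CPM in GMPs; 207, 176, 123 and 103 CPM in LT-HSCs; -0.14 ± 0.23, adjusted p = 0.728). The number that rose was 5 without GMP replicate 1 or 3, and 6 with RLE factors, and 1 fell without GMP replicate 3. Cholesterol synthesis genes were mostly not called, 22 of 25, beside 24.5% of all genes called. Srebf2, the master factor of the pathway, fell by 0.96 and Stard4, a sterol carrier, fell by 0.99. The 2 falls were beside 1 rise. Without GMP replicate 1, 3 or 4 or LT-HSC replicate 2 or 4 no cholesterol gene rose, 2 rose without AML1-ETO GMP replicate 1 or 3 or AML1-ETO LT-HSC replicate 1, and 4 rose without LT-HSC replicate 3. The median of the 25 was 0.08, or -0.07 with RLE factors or DESeq2 and -0.04 with upper-quartile factors.

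The secretory machinery rose with its cargo. Of 29 tested ER chaperone and secretion genes 20 (69%, beside 13.9% of all genes) rose and none fell, with a median of 1.09. With any 1 library left out 19 or 20 rose, while 1 fell without LT-HSC replicate 1. The 29 genes summed to 15500 to 17940 CPM in GMPs and 6290 to 8272 CPM in LT-HSCs. Calr, calreticulin, stood at 3576, 3400, 3849 and 3966 CPM in GMPs, against 637, 789, 707 and 766 CPM in LT-HSCs (2.35 ± 0.19, adjusted p = 2.79e-06). P4hb, protein disulfide isomerase, stood at 1740, 1548, 1733 and 1834 CPM in GMPs, against 332, 451, 404 and 397 CPM in LT-HSCs (2.11 ± 0.17, adjusted p = 3.36e-06). Pdia3 rose by 1.68 ± 0.14 and Hsp90b1 by 1.17 ± 0.13, whereas Hspa5, BiP, rose by only 0.70 ± 0.23, a call lost in 14 alternatives.

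Of 38 lysosomal and antioxidant genes 18 rose and 4 fell, Prdx2 (-0.62), Prdx4 (-1.08), Nqo1 (-3.83) and Gclm (-1.07), with a median of 0.72. Ncf1, a subunit of the phagocyte NADPH oxidase, rose by 4.62 ± 0.59 (310 to 349 CPM in GMPs; 5.32 to 32.7 CPM in LT-HSCs), whereas Cybb, its membrane subunit, did not pass (1.42 ± 0.53, adjusted p = 0.0624). Ctsz, cathepsin Z, rose by 2.15 ± 0.20 and Gpx1, glutathione peroxidase, by 1.5 ± 0.17. Of the 4 falls, 1 or 2 were called without any 1 GMP library, LT-HSC replicate 2 or any 1 AML1-ETO LT-HSC library, and none without LT-HSC replicates 2 and 3 together.

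Genes of ribosome production had small medians. Of 40 ribosome biogenesis genes 12 rose and none fell, with a median of 0.47, and 6 or 7 rose without any 1 GMP library or LT-HSC replicate 1, 20 without LT-HSC replicate 3 and 6 with RLE factors. The 12 are 30% of the list, beside 13.9% of all genes called higher. Npm1, nucleophosmin, rose by 0.72 ± 0.15 and Ncl, nucleolin, by 0.50 ± 0.17, a call lost in 12 alternatives. Of 66 ribosomal protein genes 10 rose, a share of 15.2% against 13.9% of all genes, with a median of 0.31. That count rested on LT-HSC replicate 2, since 56 were called without it. The count was 2 with RLE factors and 2 to 6 without GMP replicate 1, 2 or 3 or LT-HSC replicate 1, 3 or 4. The share of counts from ribosomal protein genes was 6.91% ± 0.609 in GMPs and 5.97% ± 1.11 in LT-HSCs (SD, n = 4 each; exact permutation test, adjusted p = 0.228).

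Among 31 chromatin regulators 6 rose and 5 fell, with a median of -0.10. These shares, 19.4% higher and 16.1% lower, were near the 13.9% and 10.6% of all genes. Tet2, which oxidises methylated cytosine, rose by 1.05 ± 0.25 and the architectural gene Hmga1 by 1.11 ± 0.23, while Cbx7, the Polycomb subunit of stem cells, stood at 9.05, 11.4, 9.09 and 12.1 CPM in GMPs, against 119, 115, 34.4 and 101 CPM in LT-HSCs (-3.15 ± 0.33, adjusted p = 2.29e-05). The other 4 falls were in Ezh1, Kdm6b, Kmt2a and Hmga2. Without LT-HSC replicate 1, 3 regulators rose, without GMP replicate 1 or 3, 3 fell, and without LT-HSC replicate 3, 8 fell. Of 13 genes of the BCL2 family 4 rose, namely Bak1, Bad, Bid and Pmaip1, and 4 fell, namely Bcl2l1, Mcl1, Bmf and Bbc3, with Bcl2l1 lost in 8 of 22 alternatives. Each direction held 30.8% of the 13, beside 13.9% higher and 10.6% lower of all genes. Mcl1, the survival factor of stem cells, stood at 284, 292, 263 and 250 CPM in GMPs, against 817, 800, 345 and 493 CPM in LT-HSCs (-1.17 ± 0.28, adjusted p = 0.00757).

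**Figure D4:**
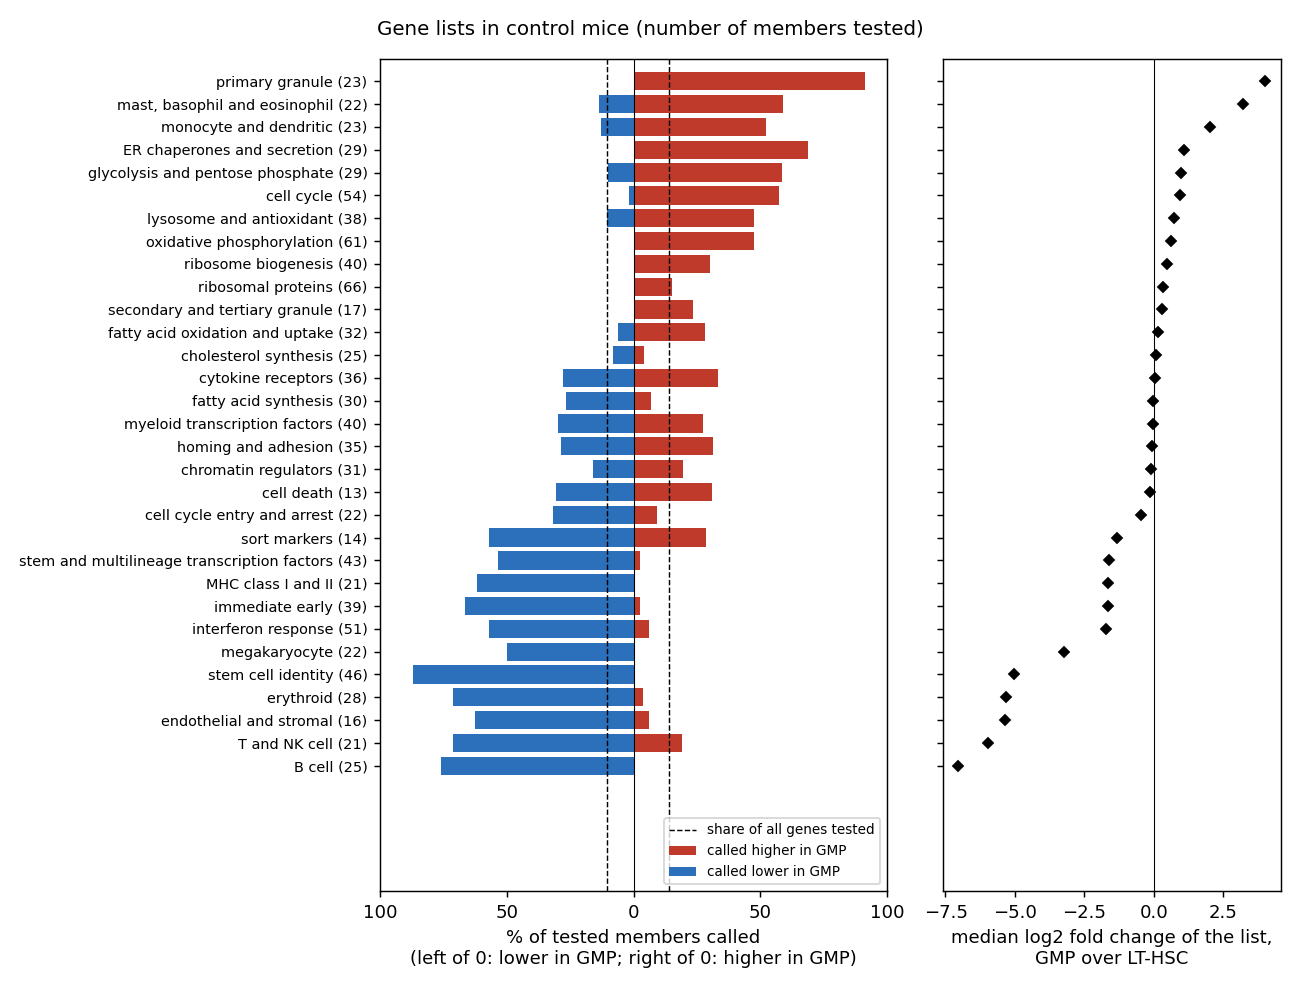
Percentage of tested members called higher in GMPs (right of 0) or lower (left of 0) for 31 gene lists, with the number tested in brackets and dashed lines at the shares of all genes, 13.9% and 10.6%; the right-hand panel gives each list's median fitted log2 fold change. The primary granule list lies at one end with 91.3% higher, and the stem cell identity list has 87.0% lower.

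The same step in AML1-ETO mice compared none of these libraries. Both steps came from 1 fit with a shared filter, scaling and estimate of the spread, so their calls are not independent. In AML1-ETO mice 2031 genes rose and 1474 fell in GMPs, 21.7% of those tested. Of the control step's rises 49.0% were called higher in the AML1-ETO step too (1102 genes, 54.3% of that step's rises), and of its falls 35.3% (600 genes, 40.7%). The opposite call was made for 94 and 48 genes. The difference between the steps itself passed for 1021 genes, 6.34% of those tested, of which 469 were more positive in controls and 552 more negative. For Hlf, Eng, Gpi1, P4hb and Spi1, chosen here as examples after their values were seen, the difference between the steps was smaller than its own SE. Hlf changed by -4.47 in the control step and -4.52 in the AML1-ETO step (adjusted p of the difference 1), Eng by -2.12 and -2.11 (1), Gpi1 by 1.62 and 1.51 (0.841), P4hb by 2.11 and 2.21 (0.918) and Spi1 by 2.48 and 2.05 (0.695).

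Others differed. Cd34 rose by 3.12 in the control step and changed by -0.64 in the AML1-ETO step, a difference of 3.76 ± 0.34 on the log2 scale (adjusted p = 0.000333). Control LT-HSCs held 30.0 to 59.5 CPM and AML1-ETO LT-HSCs 423 to 586 CPM. Csf3r rose by 2.25 in the control step and changed by -0.38 in the AML1-ETO step (adjusted p of the difference 0.0157), and the granule genes Mpo and Ctsg rose in both, by 7.97 and 8.22 in the control step and by 5.18 and 3.16 in the AML1-ETO step (0.00916 and 0.0142). Elane differed in the other sense: it had 0 counts in every AML1-ETO LT-HSC library and 2758 to 3630 CPM in AML1-ETO GMPs, so that its control step was the less positive (adjusted p of the difference 0.0260). Mki67 likewise changed by 0.25 in the control step and rose by 2.65 in the AML1-ETO step (0.0246), and Cdc45 by 1.61 and 4.08 (0.00508). Fads2 fell by 2.14 in the control step and rose by 2.21 in the AML1-ETO step (0.00102), and Acss2 fell by 2.72 in the control step and changed by 0.01 in the AML1-ETO step (0.0108). Immunoglobulin transcripts and the sparse low end of the libraries also differed between the 4 groups: 5.37% to 13.7% of detected genes lay under 1 CPM in AML1-ETO GMP libraries and 17.6% to 27.3% in AML1-ETO LT-HSC libraries, the reverse of the order in controls, and the part of this in the differences was not tested.

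**Figure D5:**
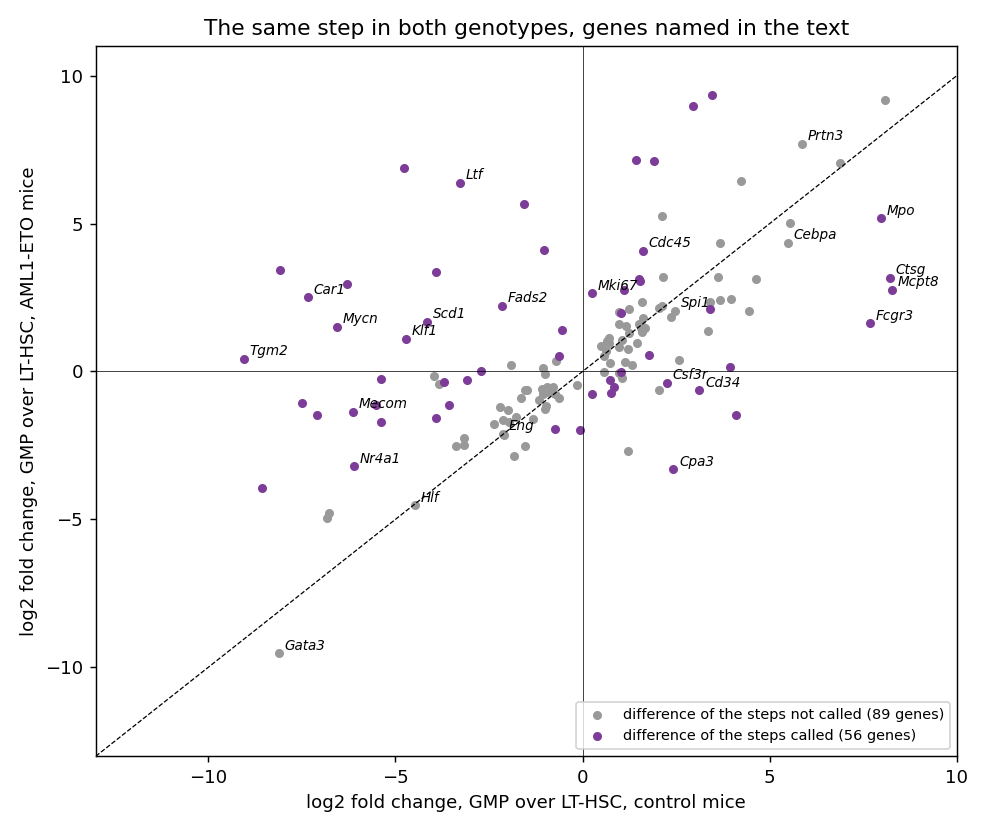
Log2 fold change of GMPs over LT-HSCs in control mice (horizontal axis) and in AML1-ETO mice (vertical axis) for 145 genes named in the text with counts in all 4 groups; the dashed line marks equal change and purple marks the 56 genes whose difference passed the test. Hlf, Eng, Spi1 and Gata3 lie near the line, whereas Cd34, Csf3r, Fads2 and Mki67 lie away from it.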

How the data were processed

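RNA from sorted GMPs and LT-HSCs was sequenced in 4 control libraries per cell type and 3 AML1-ETO libraries per cell type. The authors deposited 1 table of raw read counts per gene, whole numbers without normalisation, for 54532 gene symbols in 14 samples. RNA was extracted with the RNeasy Plus Micro Kit, and the SMART-Seq v4 and SMARTer Stranded kits served for the libraries, per the labels' protocols, which give neither kit's role. HISAT2 2.0.5, featureCounts 1.5.0-p3 and the build mm10 are named per the submitters' processing notes; the strand setting of the counting and its gene annotation were not stated there. Of the lines, 27 hold a date where the symbol should be (0.140% of counts), and 20 of them passed the filter, stayed in the tests and are not named.

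Counts were filtered (filterByExpr), scaled (TMM) and tested two-sided with edgeR 4.0.16's quasi-likelihood test in R 4.3.3, in 1 fit of 4 groups with 10 residual degrees of freedom. A gene was called at a Benjamini-Hochberg adjusted p under 0.05 over 16116 genes. Log2 fold changes are GMP over LT-HSC with SE, and ± after them is that SE. Genes at 0 in a group were set against 3 counts over the group, 0.0430 CPM in GMPs and 0.0486 CPM in LT-HSCs. This floor allows for counting error only. Medians of gene lists use fitted values, and differ with such genes at their bound only where stated. Shares of counts were compared by exact permutation of 4 against 4. Alternatives were RLE and upper-quartile scaling, no filter, DESeq2 1.42.0, a replicate block, the 8 control libraries alone, glmTreat against a log2 change of 1, each library left out, and, chosen after seeing the data, LT-HSC replicates 2 and 3 left out together and limma 3.58.1 voom quality weights per group. Figures were drawn with Python 3.11.15 and matplotlib 3.10.9.

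Some genes are not reported here. The comparison and its 32 gene lists were chosen with earlier results of these data known. Named genes are the key members of these lists, up to 4 further called members of each with the smallest p, the 10 largest rises and falls (at least 20 counts on average, no overlap), and the 5 largest rises from and falls to 0 counts. Members that alone rose, fell or did not pass in a list were picked with their values known. Gene coordinates come from GENCODE M21 (mm10), which held 98.7% of the symbols. The chi-square per gene between libraries of a group was 8.82 to 15.1 in GMPs and 84.8 to 212 in LT-HSCs, above counting noise, so none was treated as a repeat.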

Additional observations from a re-analysis of the deposited data

Results flagged for a closer look

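In 27 of 308 groups of 4 values tested, 1 library lay apart from the other 3 by more than Dixon's 95% value; chance does this in about 1 in 20 groups. LT-HSC replicate 2 was high for Ighm (49300 CPM; the others 8500 to 12300), Igkc (22900; 3350 to 4370), Ly6a (217; 45.1 to 66.1) and Il2rb (64.0; 41.3 to 43.8). It was also high in the share of counts from immunoglobulin genes (10.4%; 1.92% to 2.76%), ribosomal protein genes (7.61%; 5.17% to 5.58%) and the 10 most abundant genes (11.3%; 4.78% to 5.38%). LT-HSC replicate 3 was high for Tcf7 (550 CPM), Irf8 (79.1 CPM) and Ncf1 (32.7 CPM). LT-HSC replicate 4 was high for Cebpa (24.7 CPM) and Gzmb (8.64 CPM), and replicate 1 held the only Mcpt8 reads (0.759 CPM).

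Among GMP libraries, replicate 3 was high for Cd48 (92.1 CPM), Cebpb (64.7 CPM), Hspa5 (2880 CPM) and Bmf (1.43 CPM) and low for Ddx58 (11.5 CPM) and Mcemp1 (6.88 CPM). Replicate 2 was high for Itga2b (98.8 CPM), Cdkn1b (83.7 CPM) and Gzmb (105 CPM) and low in the share of the 10 most abundant genes (5.92%). Replicate 1 was high for Gapdh (206 CPM) and low for Pf4 (1.12 CPM) and Slc2a3 (18.3 CPM), and replicate 4 was high for Xist (29.9 CPM).

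The step differed between control and AML1-ETO mice, by edgeR's test of the difference, for 64 of the 161 genes named, and in 21 of these the control step was the more positive. Control minus AML1-ETO, in log2 units, it was more positive for Fcgr3 (6.05), Cpa3 (5.73), Cd48 (5.57), Mcpt8 (5.51), Ctsg (5.05), Serpinb1a (3.78), Cd34 (3.76), Mpo (2.79), Csf3r (2.64), Cd27 (1.89), Slc25a37 (1.5), Pecam1 (1.37), Pgam1 (1.31), Kit (1.22), Bid (1.19), Myc (1.04), Myb (1.03) and Runx1 (1.03). Among stem cell genes it was more negative for Tgm2 (-9.47), Mycn (-8.07), Slamf1 (-6.42), Vwf (-5.13), Mecom (-4.77) and Fgd5 (-4.64). Among late granule and monocyte genes it was more negative for Ltf (-9.66), Camp (-7.21), Ly6c2 (-6.01), Cd177 (-5.87), Cybb (-5.74), S100a8 (-5.19) and Ctss (-5.14).

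Erythroid, megakaryocyte and lymphoid genes were also more negative in the control step, namely Cd79a (-11.5), Car1 (-9.84), Tcf7 (-9.24), Pf4 (-7.27), Klf1 (-5.81), Ighm (-5.63), Car2 (-3.68) and Gata1 (-3.34). So were the cell cycle genes Cdc45 (-2.47), Mki67 (-2.40), Cenpa (-1.94), Cks1b (-1.52) and Mcm7 (-0.96). The same held for Scd1 (-5.84), Fads2 (-4.36), Acss2 (-2.72), S1pr1 (-4.40), Nr4a1 (-2.91), Gbp2 (-2.81), Irf7 (-2.44), Zfp36l1 (-2.32), Hmga1 (-1.65), Gadd45a (-1.64), Prdx2 (-1.15) and Xist (-11.62). For genes at 0 in a group only the adjusted p of the difference is given: the control step was the more positive for Prf1 (0.00215), Cebpe (0.00285) and Csf1r (0.0142), and the more negative for Gbp4 (0.000335), Il2rb (0.00215), Igkc (0.00735), Elane (0.0260) and Pax5 (0.0260).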

How the results depend on the processing

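No gene called in the control step was called in the other direction under any of the alternatives. The total of 3949 calls became 1151 (512 higher, 639 lower) with glmTreat and 2832 (1641 higher, 1191 lower) under a replicate block, although same-numbered libraries did not vary together (correlations of -0.0388 to 0.0182). Under that block 4 secondary and tertiary granule genes rose and 4 fell, Ltf and Camp among the falls. DESeq2 called 2676 genes lower. With 1 library left out the total was 2660 to 4584, with 1505 to 2498 higher and 1103 to 2092 lower. The count of 1021 genes whose steps differ became 1781 with DESeq2 (1090 of them more negative in controls), 508 under the replicate block (208 more positive, 300 more negative) and 471 to 1477 with 1 library left out (236 to 742 more positive, 235 to 735 more negative). The share difference of GMPs minus LT-HSCs with 1 library left out was 0.216 to 0.405 percentage points for mitochondrial, 0.672 to 1.49 for ribosomal protein and -5.13 to -2.30 for immunoglobulin genes. For the 10 most abundant genes it was -1.18 to 1.01, with the sign turned only without LT-HSC replicate 2 (1.01, adjusted p = 0.0381, exact permutation test). With same-numbered libraries paired, an exact test that flips the sign of each pair's difference gave the shares an adjusted p of 0.500 to 1. The smallest p that 4 pairs allow is 0.125, so no share could pass and this test decides nothing. Of the 161 genes named, 120 were on the same side of the threshold under all alternatives run. The causes of these shifts were not tested. Depth limits low genes: 3 counts over a group correspond to 0.0430 CPM in GMPs and 0.0486 CPM in LT-HSCs, for counting error only.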

Other observations

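Xist, the RNA of the inactive X chromosome, and Y-linked genes were both present in these libraries. Xist stood at 0.107, 0.592, 1.69 and 29.9 CPM in GMPs, against 672, 39.3, 7.87 and 155 CPM in LT-HSCs (log2 fold change -4.76 ± 1.75, adjusted p = 0.0616). The Y-linked genes Ddx3y, Eif2s3y, Kdm5d and Uty had counts in all 8 libraries and none was called between the cell types. The labels do not give the sex of the mice, and a mix of mice within a library was not tested.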
